A study of Homo sapiens with 18 samples.

Results

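Nucleolar U RNAs are the small RNAs that direct the maturation of ribosomal RNA in the nucleolus. Their copies were taken here by repeat name: every annotated copy named U3, U8, U13, U13_, U14 or U17 in a table of counts per repeat copy. The table for 5-fluorouracil (5-FU) held 362 such copies among 2404193 copies in all, and the table for Nutlin held 238 among 1996647. By name, the 5-FU table had 115 copies of U3, 13 of U8, 85 of U13, 136 of U13_, 6 of U14 and 7 of U17.

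The RNA came from IMR90, an established human fibroblast line from lung, with the genotype label wildtype. Total RNA was sequenced with a stranded kit in 9 groups of 2 samples, 18 in all. Nutlin was given at 5 µM for 6 h and 5-FU at 375 µM for 6, 12 or 24 h. Each of these 4 groups had its own controls with DMSO, the solvent, for the same time. The untreated group had a change of medium 12 h before extraction. The labels do not say that the samples of a group were separate cultures, so p-values measure only the spread between these samples, which may be technical. All comparisons are within bulk RNA, in which fewer cells with an RNA and less RNA per cell cannot be told apart.

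Most of these RNAs belong to the box C/D class, whose members pair with pre-ribosomal RNA and either mark it for ribose methylation or help to fold and cleave it. U3 is the most abundant of them and is needed for the cleavages that release the RNA of the small ribosomal subunit. U14 and U13 also act on the RNA of the small subunit, and U8 on that of the large subunit. U17 is of the other class, box H/ACA, and serves cleavage at the small subunit's RNA. 5-FU is a pyrimidine analogue that is built into RNA and blocks thymidylate synthesis, and Nutlin releases p53 from its inhibitor MDM2.

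Nearly all counts of U3 lay at a single copy, although other copies carry almost the same letters. This copy, chr17:19091329-19091545 in hg19, held 1067446 of the 1069124 counts of the name in the 5-FU table (99.8%). It was matched to the gene SNORD3A, because 5 copies of U3 on chromosome 17 repeat the gaps between the starts of 5 RefSeq genes (2008, 48500, 75596 and 2013 bases). The copies matched to SNORD3B-1, SNORD3C, SNORD3B-2 and SNORD3D held 283, 3, 0 and 0 counts. The pair SNORD3A and SNORD3D is shown because it is the same RNA at copies with the most counts and with 0 counts. Capitals mark the bases that differ, which read from SNORD3D to SNORD3A, counted from 1 at the 5′ end, are G4A, T53C and C78A.
SNORD3A: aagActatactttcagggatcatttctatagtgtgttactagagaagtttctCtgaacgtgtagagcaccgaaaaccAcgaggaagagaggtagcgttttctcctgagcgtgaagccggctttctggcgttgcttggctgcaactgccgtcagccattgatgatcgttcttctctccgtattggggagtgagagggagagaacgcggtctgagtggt
SNORD3D: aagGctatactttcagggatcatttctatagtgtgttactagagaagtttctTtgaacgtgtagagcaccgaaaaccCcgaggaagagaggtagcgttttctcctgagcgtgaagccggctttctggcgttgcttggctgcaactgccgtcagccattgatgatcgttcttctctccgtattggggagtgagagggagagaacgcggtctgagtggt

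Both sequences are 217 bases long and 98.6% identical. SNORD3B-1 differs from SNORD3A at 1 base (C78A, from SNORD3B-1 to SNORD3A) and is identical to SNORD3B-2. How reads that match several copies were assigned is not given in the sources used here, so the place of a U3 count among these genes is uncertain and the sum over all copies was used for the main tests.

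U17 was split between a pair of copies on chromosome 1 whose starts lie 1193 bases apart, as do those of SNORA73A and SNORA73B. The copy at chr1:28833877-28834083 (SNORA73A) held 153535 counts in the 5-FU table (59.5% of the name) and the copy at chr1:28835070-28835271 (SNORA73B) held 104319 (40.5%). Both genes lie within SNHG3 and RCC1, on the same strand, in GENCODE v29 (GRCh38). They are shown because both copies held many counts, unlike those of U3; whether reads were placed at the right one of the pair was not tested. Capitals mark the bases that differ between the aligned sequences, 12 mismatches and 2 gap positions, with an identity of 93.2%.
SNORA73A: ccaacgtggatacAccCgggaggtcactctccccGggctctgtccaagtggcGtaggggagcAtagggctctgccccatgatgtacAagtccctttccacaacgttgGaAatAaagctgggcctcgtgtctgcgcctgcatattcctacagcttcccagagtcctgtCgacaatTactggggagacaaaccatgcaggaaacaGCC
SNORA73B: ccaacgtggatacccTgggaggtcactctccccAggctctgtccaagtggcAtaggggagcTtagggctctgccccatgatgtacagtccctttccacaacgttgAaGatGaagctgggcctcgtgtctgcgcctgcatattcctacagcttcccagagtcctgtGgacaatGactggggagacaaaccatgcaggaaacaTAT

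U14 had 5 copies with counts to test, all on chromosome 11, in 2 host genes. The copies matched to SNORD14D, SNORD14C and SNORD14E (overlapping HSPA8, a heat shock protein gene) held 574, 357 and 147 counts, and those matched to SNORD14B and SNORD14A (overlapping RPS13, a ribosomal protein gene) held 229 and 131. The main one, matched to SNORD14D at chr11:122929617-122929703, held 39.9% of the name. The sequences of 4 of them are shown because the copies of U14 differ far more than those of U3, with 73.6% to 85.9% identity among these 4. Capitals mark the letters TGATGA (box C), found in all 5, and CTGA (box D), found in 4 of 5 and not in SNORD14D, the copy with the most counts. Only the strand of the RNA was searched.
SNORD14D: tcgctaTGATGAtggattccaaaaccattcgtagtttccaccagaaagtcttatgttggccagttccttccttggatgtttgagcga
SNORD14A: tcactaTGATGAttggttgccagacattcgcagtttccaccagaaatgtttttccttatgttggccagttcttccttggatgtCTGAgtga
SNORD14B: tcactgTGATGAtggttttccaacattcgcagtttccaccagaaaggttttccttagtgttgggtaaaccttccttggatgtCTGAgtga
SNORD14E: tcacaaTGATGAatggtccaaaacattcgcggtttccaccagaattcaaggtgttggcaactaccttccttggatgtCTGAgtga

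U8 and U13 were matched to SNORD118 and SNORD13 by name and chromosome alone. In GENCODE v29 (GRCh38) SNORD118 overlaps an exon and an untranslated region of TMEM107 on the same strand. SNORD13 overlaps an untranslated region of TTI2 on the opposite strand. Whether part of the U8 counts came from TMEM107 RNA was not tested. The main copy of U8, chr17:8076771-8076906, held 1857 of 1875 counts (99.0%), and that of U13, chr8:33370992-33371099, held 2381 of 3004 (79.3%). U13_ is a separate entry of the repeat annotation and had no dominant copy: its main one, chrX:152616930-152617036, held 323 of 2140 counts (15.1%). Per 100 bases of the main copy, untreated cells had a mean of 5154 CPM, counts scaled to a common library size, for U3 and 1150.05 for U17, against 22.6 for U8, 22.3 for U13, 9.60 for U14 and 7.75 for U13_ (n = 2).

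Library totals ran from 2412334 to 6290320 counts in the 5-FU table and from 9109885 to 11880265 in the Nutlin table. The 6 names together took 1.66% to 3.61% of the counts in the first and 0.575% to 0.619% in the second. The tables were made differently: 7SL RNA took 3.59% to 12.5% of the first and 61.7% to 67.9% of the second, so no level was compared between them. The DMSO 12 h libraries stood apart, with the smallest totals of the 5-FU table (2412334 and 2540089 counts) and the largest shares of 7SL RNA (10.6% and 12.5%).

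After 24 h of 5-FU, 4 of the 6 names rose against DMSO: U8, U13, U17 and U3, with log2 fold changes of 0.69 to 0.89. U14 and U13_ did not pass the test, and no name fell. The median log2 fold change of the 6 names was 0.73, against 0.13 over all names tested. A name was called with a Benjamini-Hochberg adjusted p under 0.05 in edgeR's quasi-likelihood test on counts summed over copies, with all 1078 names tested. That test called 12.1% of all names at 24 h, 10.9% as higher. These were 117 higher and 13 lower calls, against 70 and 23 with RLE size factors and 29 and 18 with library size alone. At 12 h, U13 and U8 rose, while 33.8% of all names were called, 28.5% as higher. The 307 higher and 57 lower calls at 12 h became 163 and 233 with RLE and 61 and 436 with library size alone. At 6 h the main fit called none of the 6 (0 at an unadjusted p under 0.05). It called no other name either (0%), with 126 at an unadjusted p under 0.05. That silence depends on the fit. When the treated and control samples of 6 h were fitted by themselves, 101 of 1063 names were called, 86 higher and 15 lower. None of the 6 was among them. DESeq2 called 0 of the 6 at 6 h. The difference between the 24 h and 6 h effects was called for 0 of the 6 names by edgeR (3 at an unadjusted p under 0.05), against 1.11% of all, and for U13 by DESeq2 (0.95, adjusted p = 0.0450).

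The 24 h calls depend on the DMSO 24 h libraries, on the scaling and on the spread shared across groups. With library size alone 1 of the 6 names was called, and with TMM factors from the name sums 2 were. Across 8 other settings the lowest log2 values were 0.44 for U3, 0.51 for U17, 0.58 for U13 and 0.65 for U8. Without DMSO 24 h replicate 1, U8 and U17 were still called and U3 and U13 were not; without DMSO 24 h replicate 2, U13 alone was called. With only the 4 libraries of the comparison in the fit, 0 of the 6 names and 4 of 1070 names in all passed the test.

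**Figure D1:**
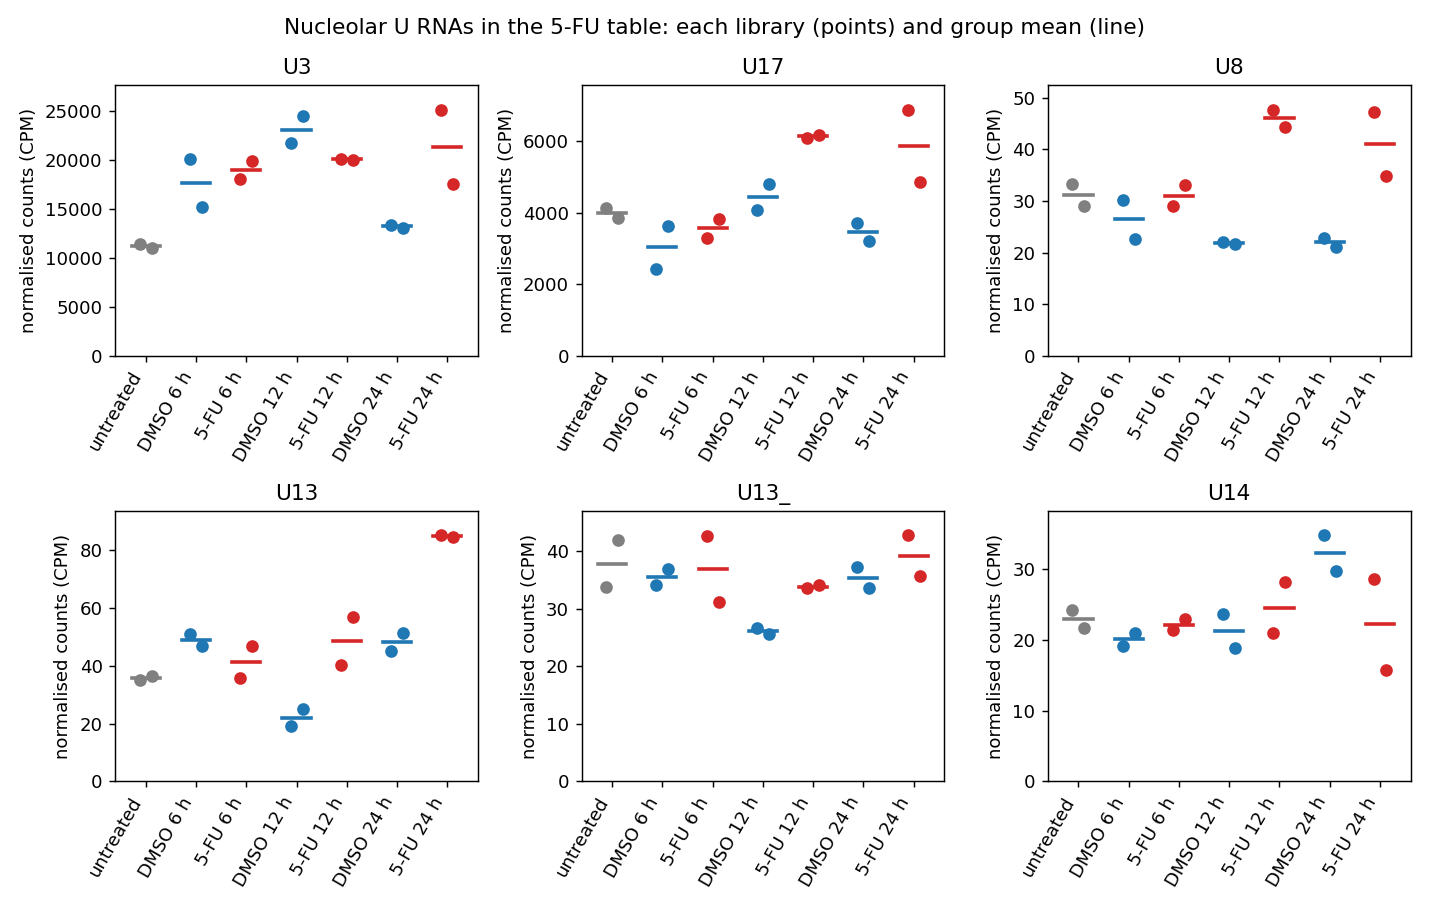
Normalised counts (CPM, y axes from 0) of the 6 repeat names in the 14 libraries of the 5-FU table, points for libraries and lines for group means, with DMSO in blue, 5-FU in red and untreated in grey. U13 in both 5-FU 24 h libraries (85.1 and 84.3) lies above every other library, and U3 is highest on average in DMSO 12 h.

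U3, the RNA of the early cleavages, had 25131 and 17509 CPM in the 5-FU 24 h libraries and 13378 and 13029.7 CPM in the DMSO 24 h libraries. The groups did not overlap, but the treated libraries differed more from each other than any other pair. The log2 fold change was 0.69 (SE 0.15, edgeR adjusted p = 0.0101), and it was 0.41 without 5-FU 24 h replicate 1 and 0.93 without replicate 2.

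At 12 h U3 did not pass the test. Its level was 20109 and 19988.5 CPM in the 5-FU libraries and 21713 and 24430.2 CPM in the DMSO 12 h libraries. The DMSO libraries were the higher pair, with a log2 fold change of -0.20 (SE 0.15, edgeR adjusted p = 0.330). With RLE size factors it was -0.49 (adjusted p = 0.0162) and with the 6 h and 24 h DMSO libraries as controls 0.39 (adjusted p = 0.0268), so the direction at 12 h turns with the controls.

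At 6 h the 5-FU libraries had 18043 and 19859.5 CPM of U3 and the DMSO libraries 20122 and 15136.5. These groups overlapped, and the log2 fold change was 0.10 (SE 0.15). The difference between the 24 h and 12 h effects was 0.89 (SE 0.22, edgeR adjusted p = 0.0216), a comparison added after the data were seen, in which it was the 1 of 6 called, and 9.83% of all names were called, 0.835% as higher. These were 9 higher and 97 lower calls, against 40 and 41 with RLE and 15 and 13 with library size alone. The U3 difference missed the threshold with TMM factors from the name sums (adjusted p = 0.0565) and when any 1 of the DMSO 12 h or DMSO 24 h libraries was left out (adjusted p from 0.0564 to 0.0838).

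U3 also differed between the control groups. The untreated libraries had 11415 and 11003 CPM, below all 6 DMSO libraries, and the mean of the DMSO groups was higher by a log2 value of 0.64 (SE 0.13, edgeR adjusted p = 0.00925). It was the 1 of 6 names called in that comparison, which called 11.8% of all names, 1.67% as higher. These were 18 higher and 109 lower calls, against 77 and 36 with RLE, under which U3 was higher by 0.78. Against each DMSO group alone the log2 difference was 0.65 at 6 h, 1.04 at 12 h and 0.24 at 24 h (adjusted p = 0.0277, 0.000435 and 0.466). It was not called without either untreated library (adjusted p = 0.0806 and 0.113). From high to low, the means of U3 ran DMSO 12 h, 5-FU 24 h, 5-FU 12 h, 5-FU 6 h, DMSO 6 h, DMSO 24 h and untreated. Of neighbours in this order, 5-FU 12 h and 6 h, DMSO 6 h and 24 h, and DMSO 24 h and untreated did not overlap.

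U17, the box H/ACA RNA, had 6886 and 4849 CPM after 24 h of 5-FU and 3702 and 3216 CPM in DMSO. All treated libraries lay above their controls, with a log2 fold change of 0.76 (SE 0.18, edgeR adjusted p = 0.0136). At 12 h it had 6096 and 6171 CPM with 5-FU and 4074 and 4789.9 CPM in DMSO. The groups again did not overlap, but the log2 fold change of 0.47 (SE 0.18) missed the threshold (adjusted p = 0.0586). It was 0.92 (adjusted p = 0.000671) with the 6 h and 24 h DMSO libraries as controls and -0.10 (adjusted p = 0.654) with library size alone. At 6 h the groups overlapped, with 3298 and 3823 CPM against 2434 and 3626, and a log2 fold change of 0.23.

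The proportion of the U17 copies differed little and not in 1 direction. SNORA73B had 570.2 to 793.8 counts per 1000 counts of SNORA73A over the 14 libraries, and the log2 ratio differed by -0.06 between 5-FU and DMSO over the 3 time points (exact permutation test within time points, two-sided p = 0.380). By time it differed by -0.17 at 6 h and -0.09 at 12 h, where the groups did not overlap, and by 0.10 at 24 h, where they did. At 24 h the log2 fold change was 0.63 for SNORA73A and 0.74 for SNORA73B. Neither passed the test among copies (edgeR adjusted p = 0.173 and 0.112).

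U14, which acts on the RNA of the small subunit, had 34.7 and 29.7 CPM in DMSO 24 h, the highest of its 7 groups, and 28.6 and 15.8 CPM in 5-FU 24 h. The groups did not overlap, but the log2 fold change of -0.57 (SE 0.25) did not pass the test (edgeR adjusted p = 0.161). Without 5-FU 24 h replicate 1 it was -1.03 (adjusted p = 0.00380) and without replicate 2 it was -0.17. The copy matched to SNORD14D had 36 and 30 counts with 5-FU and 77 and 71 in DMSO, a log2 fold change of -1.08 that missed the threshold among copies (edgeR adjusted p = 0.0645). All 5 tested copies of U14 had log2 values below 0 at 24 h, from -1.31 to -0.10, and none was called.

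At 12 h U14 overlapped between 5-FU and DMSO, with a log2 fold change of 0.21. At 6 h it had 21.3 and 22.9 CPM with 5-FU against 19.1 and 21.0 in DMSO, without overlap but with a log2 fold change of only 0.14, which was not called. Its libraries held 59 to 182 counts of the name, so changes of the size of those of U3 were measured with a wider error (SE 0.26 and 0.27 at 6 and 12 h).

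U13, a box C/D RNA of the small subunit, had 85.1 and 84.3 CPM after 24 h of 5-FU and 45.2 and 51.3 CPM in DMSO. The treated pair was the highest of all 14 libraries, with a log2 fold change of 0.81 (SE 0.17, edgeR adjusted p = 0.00764). At 12 h it had 40.4 and 56.8 CPM with 5-FU and 19.2 and 24.9 CPM in DMSO, a log2 fold change of 1.14 (SE 0.20, edgeR adjusted p = 0.000816).

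The 12 h value of U13 turned on the choice of controls. The DMSO 12 h libraries were the lowest of the 14 for U13, and with the 6 h and 24 h DMSO libraries as controls the log2 fold change at 12 h was 0.00016 (adjusted p = 0.999). Without 5-FU 12 h replicate 2 it was 0.77 (adjusted p = 0.0547). At 6 h U13 had 35.7 and 46.7 CPM with 5-FU and 51.0 and 46.9 in DMSO, a log2 fold change of -0.24 that was not called.

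U8, which acts on the RNA of the large subunit, had 47.2 and 34.9 CPM after 24 h of 5-FU and 22.9 and 21.0 CPM in DMSO. The groups did not overlap, with a log2 fold change of 0.89 (SE 0.19, edgeR adjusted p = 0.00760). At 12 h it had 47.7 and 44.4 CPM with 5-FU and 22.0 and 21.7 CPM in DMSO, a log2 fold change of 1.07 (SE 0.20, edgeR adjusted p = 0.00113). Unlike that of U13, the 12 h value was 0.94 with the 6 h and 24 h DMSO libraries as controls (adjusted p = 0.000997). With library size alone as the scaling it was 0.51 (adjusted p = 0.0505). At 6 h U8 had 29.1 and 33.0 CPM with 5-FU and 30.3 and 22.5 in DMSO, a log2 fold change of 0.24 that was not called.

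The level of U8 in untreated cells (33.3 and 29.1 CPM) lay above both DMSO 24 h libraries and both DMSO 12 h libraries. The mean of the DMSO groups was lower than untreated by a log2 value of -0.42 (SE 0.16), which was not called (edgeR adjusted p = 0.112). From high to low, the means ran 5-FU 12 h, 5-FU 24 h, untreated, 5-FU 6 h, DMSO 6 h, DMSO 24 h and DMSO 12 h. Only 5-FU 24 h and untreated did not overlap as neighbours in this order.

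U13_ had log2 fold changes of 0.05, 0.37 and 0.14 at 6, 12 and 24 h and was not called at any time. It had its lowest level in DMSO 12 h (26.7 and 25.6 CPM) and 31.1 to 42.8 CPM in the other 12 libraries.

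**Figure D2:**
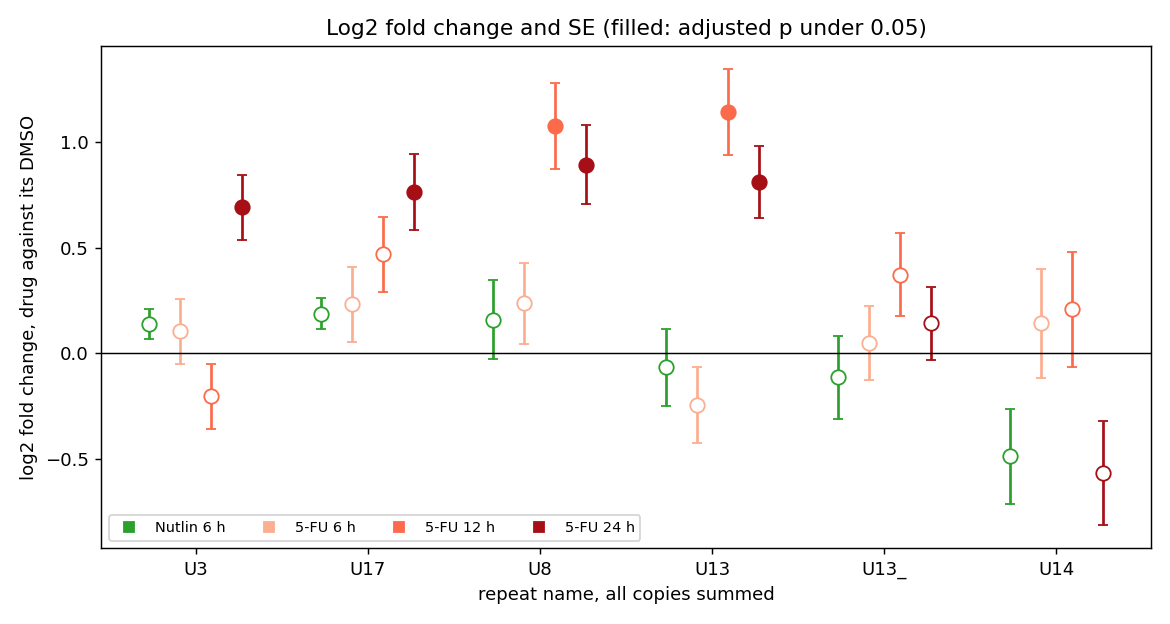
Log2 fold change of each name between drug-treated cells and their time-matched DMSO controls (y axis), with bars of 1 SE and filled points where the edgeR adjusted p was under 0.05. At 24 h of 5-FU, U3, U17, U8 and U13 are filled and above 0, and U14 lies below 0 with an open point.

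Among single copies, 23 passed the filter on low counts in the 5-FU table (6 of U3, 1 of U8, 2 of U13, 7 of U13_, 5 of U14 and 2 of U17). At 12 h 4 of them were called, 3 higher and 1 lower, where 9.68% of all 63602 copies tested were called (5.36% higher and 4.33% lower). The main copies of U13 (log2 fold change 1.11) and U8 (0.84) were 2 of the risen (edgeR adjusted p = 0.00934 and 0.0293). With library size alone neither was called (0.67 and 0.40, edgeR adjusted p = 0.0781 and 0.189), nor was U8 with no filter (adjusted p = 0.0552). The call of U8 was lost when any 1 of the 4 libraries was left out (adjusted p from 0.0929 to 0.160). That of U13 was lost without 5-FU 12 h replicate 2 or DMSO 12 h replicate 1, and its log2 value was 0.21 (adjusted p = 0.515) with the 6 h and 24 h DMSO libraries as controls.

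A copy of U13_ at chr6:157712341-157712432 was the other that rose at 12 h. It had 28 and 30 counts with 5-FU and 4 and 5 in DMSO, a log2 fold change of 2.29 (SE 0.55, edgeR adjusted p = 0.0108). It was 1.51 with the 6 h and 24 h DMSO libraries as controls (adjusted p = 0.0119). The call was lost without 5-FU 12 h replicate 2 or either DMSO 12 h library (adjusted p from 0.0517 to 0.110). At 24 h it had 31 and 20 counts against 13 and 14 (log2 fold change 1.02) and was not called.

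The copy that fell at 12 h was the U3 copy matched to SNORD3B-1 (chr17:18965225-18965441). It had 13 and 8 counts with 5-FU and 52 and 52 in DMSO 12 h, a log2 fold change of -2.67 (SE 0.43, edgeR adjusted p = 0.000477). The other 12 libraries had 8 to 26 counts, and with the 6 h and 24 h DMSO libraries as controls the log2 value was 0.40. The high values were thus those of the DMSO 12 h libraries. Its effect of 5-FU differed between 24 h and 12 h by 3.91 (edgeR adjusted p = 0.00409), as the 1 of 23 copies called, where 0.593% of all copies were called and 0.192% as higher.

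At 24 h the main copies of U13 (log2 fold change 0.91, edgeR adjusted p = 0.0281) and U8 (0.84, adjusted p = 0.0388) were called, 2 of 23, against 4.16% of all copies, 2.29% as higher. Both calls were lost with no filter (edgeR adjusted p = 0.104 and 0.353) and with library size alone (0.0677 and 0.0659). Member copies called under those settings were thus others. Neither was called without DMSO 24 h replicate 1 or without replicate 2, nor was U8 without 5-FU 24 h replicate 1 (adjusted p = 0.121). The main copy of U3 holds almost every U3 count, yet its log2 fold change of 0.61 was not called among copies (edgeR adjusted p = 0.280). As a name sum U3 passed the test; the fits of names and of copies differ in scaling, estimated spread and number of tests. At 6 h 0 of 23 copies were called (0 at an unadjusted p under 0.05), against 0.104% of all. For the 24 h minus 6 h difference edgeR called 0 of 23 (5 at an unadjusted p under 0.05; DESeq2 called 1), against 0.401% of all.

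With the main copy of every name left out, 5 of the 6 names could be tested; U8 then had 0 to 4 counts a library. The rest of U3 had 75 to 185 counts a library and fell at 12 h by 0.77 on the log2 scale (SE 0.16, edgeR adjusted p = 0.00419), as the 1 of 5 called, where 19.1% of such sums were called, 3.71% as lower. It was not called without 5-FU 12 h replicate 2. The rest of U3 had 38.4 and 41.5 CPM in DMSO 12 h and 22.4 to 29.5 CPM in the other 12 libraries. Of this the SNORD3B-1 copy made up 16.4 and 16.6 CPM in DMSO 12 h and 3.83 and 2.29 CPM in 5-FU 12 h. At 24 h the rest of U3 differed by 0.03. In the 24 h minus 12 h and 24 h minus 6 h differences 0 of 5 sums were called (1 each at an unadjusted p under 0.05), against 4.57% and 0.0951% of all. The rest of U13 differed by -0.01 at 24 h, while its main copy rose. The rest of U17, which is SNORA73B but for 0 to 7 counts a library, rose by 0.83 at 24 h (SE 0.20, edgeR adjusted p = 0.0454), as the 1 of 5 called, where 3.52% of such sums were called, 3.24% as higher. It was not called when 5-FU 24 h replicate 1 or either DMSO 24 h library was left out, nor with RLE, library size alone, TMM from name sums, DESeq2, the replicate block or only the 4 libraries. U14 and U13_ without their main copies were not called at any time. At 6 h 0 of the 5 sums were called (0 at an unadjusted p under 0.05), against 0.0951% of all. For DMSO against untreated 0 of 23 copies and 0 of 5 sums were called by edgeR (3 and 1 at an unadjusted p under 0.05; DESeq2 called 1 copy), against 1.72% of all copies and 3.9% of all sums.

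Ratios between these RNAs within a library need no scaling between libraries, and they were compared after the data had been seen. U8 had 2.37 and 2.22 counts per 1000 counts of U3 in 5-FU 12 h and 1.01 and 0.889 in DMSO 12 h. At 24 h it had 1.88 and 1.99 against 1.71 and 1.61, and at 6 h 1.61 and 1.66 against 1.51 and 1.49. At each time both 5-FU libraries lay above both DMSO libraries. The untreated libraries had 2.92 and 2.64, above every 5-FU and every DMSO library. Over the 3 times the log2 ratio was higher by 0.54 with 5-FU (exact permutation test within time points, two-sided p = 0.00926, the smallest that 216 arrangements can give). Adjusted over the 7 ratios compared the p was 0.0648, and without the 12 h libraries the difference was 0.17 (exact p = 0.0556, the smallest possible).

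No ratio passed an adjusted p of 0.05 over the 3 times. U17 per U3 differed by 0.30 (exact permutation p = 0.130), from 0.14 at 6 h and 0.67 at 12 h to 0.08 at 24 h. The untreated libraries had 361 and 350 counts of U17 per 1000 counts of U3, above every 5-FU and every DMSO library. U13 per U3 differed by 0.37 (exact permutation p = 0.250) and U14 per U3 by -0.28 (exact permutation p = 0.315). At 24 h, U17, U13 and U8 per U3 thus differed from DMSO by 0.08, 0.15 and 0.22, and U14 per U3 by -1.26. U14 had 2.596 and 2.28 counts per 1000 counts of U3 in DMSO 24 h and 1.14 and 0.901 in 5-FU 24 h.

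**Figure D3:**
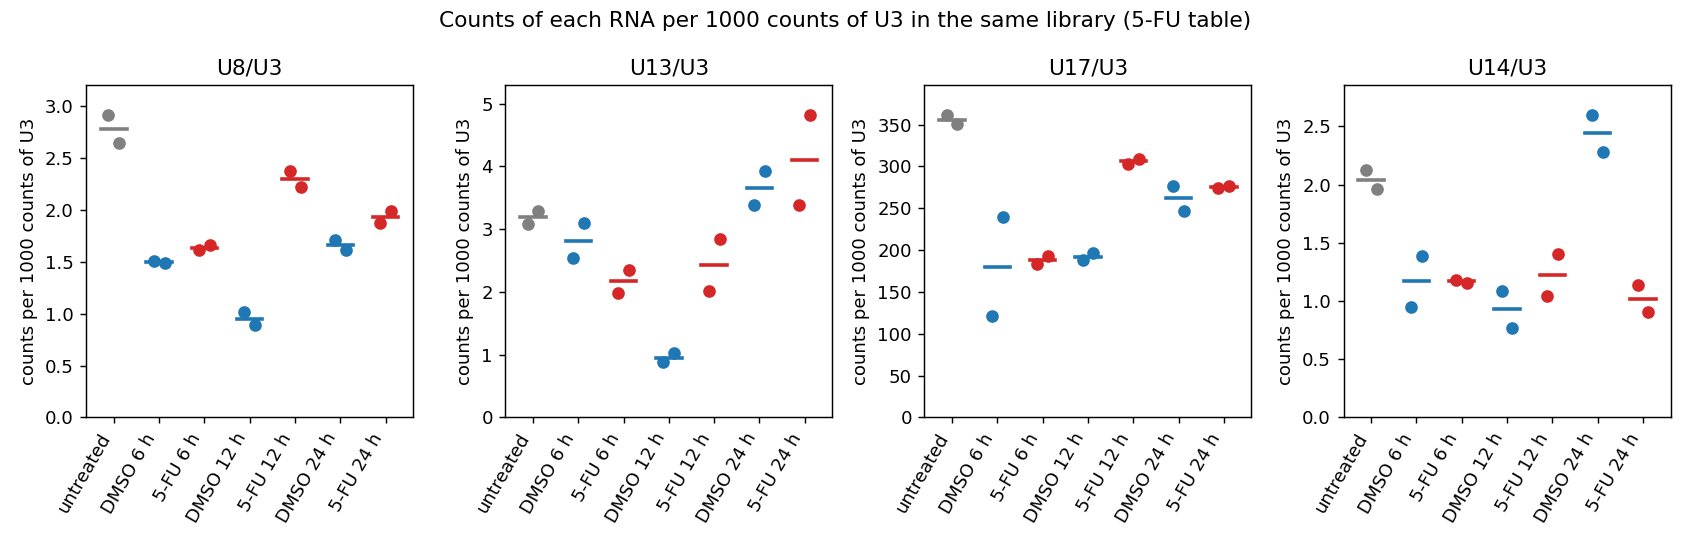
Counts of U8, U13, U17 and U14 per 1000 counts of U3 in the same library (y axes from 0), by group of the 5-FU table, with points for libraries and lines for means. U8 per U3 is higher with 5-FU than with DMSO at each time and highest in the untreated libraries. U14 per U3 is highest in the DMSO 24 h libraries (2.596 and 2.28).

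Other small nuclear and ribosomal RNA names were set beside these, from a list of 10 (U1, U2, U4, U5, U6, U7, 7SK, 5S and both large ribosomal RNAs). At 24 h 4 of the 10 were called, all higher: U2 (log2 fold change 0.95), U4 (1.00), U5 (0.90) and U6 (0.47), which are RNAs of the spliceosome. At 12 h 8 of the 10 were called, all higher, with a median log2 fold change of 0.90 against 0.42 for the nucleolar names, and at 6 h 0 (1 at an unadjusted p under 0.05, 7SK). The order of the medians was the reverse at 24 h, with 0.51 for the list and 0.73 for the nucleolar names. At 6 h they were 0.15 and 0.12. The names in the table most like U3 over the 14 libraries, by Pearson correlation of log2(CPM + 1) among 1072 names, were Kanga1a (r = 0.892), Tigger5b (0.843) and U5 (0.785). These correlations share the libraries' scaling. Among the other nucleolar names, U17 had the largest correlation with U3 (r = 0.408).

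Repeat copies within 5000 bases of the U17 copies, with values from the fit of single copies, were set beside U17. Whether these neighbours lie in the same host genes was not checked. The 17 tested had a median log2 fold change of 0.26 at 6 h, 0.74 at 12 h (2 called higher and 1 lower) and -0.61 at 24 h (0 higher and 1 lower). U17 itself had 0.23, 0.47 and 0.76 as a name sum. In the fit of single copies SNORA73A had 0.20, 0.26 and 0.63, and SNORA73B 0.02, 0.17 and 0.74. Among the 5-FU times the median of the neighbours thus went the other way at 24 h alone, with single values from -1.05 to 2.06. With Nutlin the 10 tested neighbours of U17 had a median of -0.88 (from -1.52 to -0.22), against 0.19 for U17. Of these 0 were called higher and 2 lower, where 7.69% of all copies were called. The 8 tested neighbours of the U14 copies had medians of -0.24, -0.34 and -0.79 at 6, 12 and 24 h of 5-FU, with 1 called, higher at 12 h. The 4 neighbours of the U8 copies had medians of 1.09, 0.61 and -0.57, and the 2 of the U13 copies -0.77, 0.80 and 0.79, with none called at any of these times by edgeR (0 at an unadjusted p under 0.05).

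After 6 h of Nutlin, none of the 6 names was called, where the edgeR test called 12.6% of all 1039 names. At an unadjusted p under 0.05 there were 2, U17 and U14, and DESeq2 called 0 of the 6. The members' median log2 fold change was 0.04, against 0.07 over all names. U17 had 1763 and 1759 CPM with Nutlin and 1556 and 1536 CPM in DMSO. The groups did not overlap, with a log2 fold change of 0.19 (SE 0.07, edgeR adjusted p = 0.0899). U17 was called with RLE size factors (0.19, adjusted p = 0.00598), but with library size alone its log2 value was 0.01 (adjusted p = 0.887).

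U3 had 4746 and 4774 CPM with Nutlin and 4282 and 4372 CPM in DMSO, again without overlap, and a log2 fold change of 0.14 (SE 0.07, edgeR adjusted p = 0.210). Of 8 other settings, U3 was called as higher in 3 (lowest edgeR adjusted p = 0.0173). In 1, library size alone, its log2 value was -0.036. U14 had 5.08 and 8.66 CPM with Nutlin and 9.99 and 8.92 CPM in DMSO, a log2 fold change of -0.49 (SE 0.22, edgeR adjusted p = 0.152). Without Nutlin replicate 1 it was -0.13. U8, U13 and U13_ had log2 fold changes of 0.16, -0.07 and -0.11, and the groups of each overlapped. Of the 10 other small nuclear and ribosomal names, 4 were called with Nutlin, all higher: 7SK (0.37), U1 (0.26) and both large ribosomal RNAs (0.21 and 0.33).

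None of the 12 member copies tested in the Nutlin table was called (0 at an unadjusted p under 0.05), against 7.69% of all 24565 copies. SNORA73A and SNORA73B had log2 fold changes of 0.20 and 0.15. Without main copies, 0 of 5 names were called (0 at an unadjusted p under 0.05), against 3.03%.

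**Figure D4:**
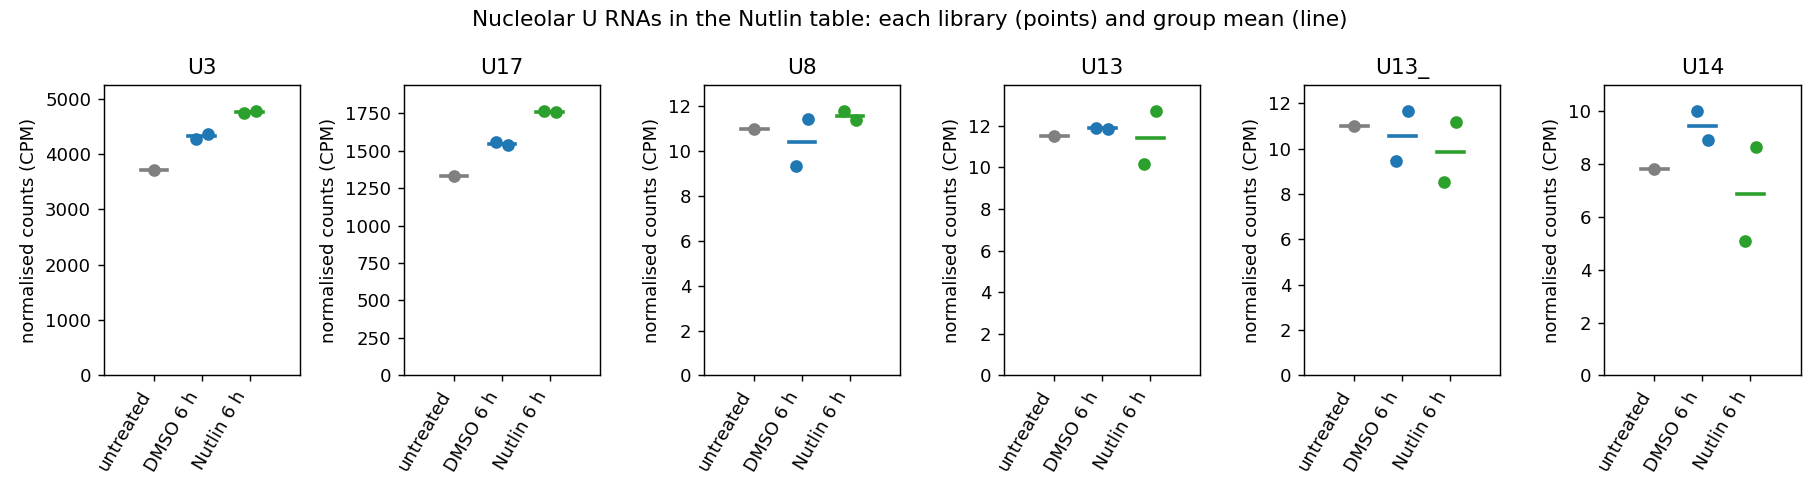
Normalised counts (CPM, y axes from 0) of the 6 names in the 5 libraries of the Nutlin table, with points for libraries and lines for means, untreated in grey, DMSO in blue and Nutlin in green. The Nutlin libraries of U3 (4746 and 4774) and U17 (1763 and 1759) lie above their DMSO libraries. The DMSO points are 4282 and 4372 for U3 and 1556 and 1536 for U17, and neither name was called in the main fit.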

How the data were processed

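Total RNA of 18 IMR90 samples in 9 groups was analysed as counts per repeat copy, raw read counts in 2 tables as the authors deposited them. The submitters' processing notes name hg19, Trimmomatic 0.32, cutadapt 1.10, Bowtie2, edgeR and DESeq2; the counting program and the handling of multiply matching reads are not given in the sources used here. Per the labels' protocols, RNA was extracted with a column kit by a variant made for small RNA; how well RNAs of these lengths were recovered is not known. Groups came from the labels. Identical untreated columns of the Nutlin table were used as 1 library, which leaves 5 there and 14 in the 5-FU table.

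Counts were summed by repeat name, by name without its main copy, or left per copy. Features needed 10 counts at the median library size in at least 2 libraries and 15 in all; this is the rule of filterByExpr, except that the lone untreated library was not allowed to relax it. Each table was fitted with edgeR 4.0.16 (quasi-likelihood, TMM scaling, limma 3.58.1, R 4.3.3), 1 mean per group; for name sums, totals and TMM factors were taken over every copy, and for single copies over those that passed the filter. Adjusted p-values are Benjamini-Hochberg over all features of a fit, with a threshold of 0.05; the SE is the log2 fold change divided by the square root of F. DESeq2 1.42.0 was an alternative, as were other scalings, no filter, a replicate block, fewer libraries and other controls. In tests on simulated data the name fits held their false rate. Calls among single copies there held more false ones than the nominal rate and recovered few 2-fold changes. Whether the name fits hold their false rate in the real libraries, where calls moved with the scaling, was not tested.

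CPM are counts scaled by library size and TMM factor. The named copies are the main copy of each name, those with at least 10% of it, and at most 3 called copies a direction. The members, lists and rules were chosen with earlier results of these data known. Sequences are those of GENCODE v29 transcripts (GRCh38), in transcript orientation; genes were matched to hg19 copies by the gaps between RefSeq gene starts, and no coordinates were converted. Exact tests went through all arrangements with numpy 2.4.6. Alignments used Biopython 1.88, tables pandas 2.3.3 and numpy, and plots matplotlib 3.10.9, in Python 3.11.15.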

Additional observations from a re-analysis of the deposited data

Results flagged for a closer look

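The effect of 5-FU on U3 differed between times in the main fit. The log2 fold change was -0.20 at 12 h and 0.69 at 24 h, a difference of 0.89 (edgeR adjusted p = 0.0216). This comparison was added after the data were seen. It missed the threshold with TMM factors from the name sums (edgeR adjusted p = 0.0565). With the 6 h and 24 h DMSO libraries as controls, U3 at 12 h was 0.39. For U13 the effect had opposite signs at 6 h (-0.24) and 12 h (1.14), and at neither time did the 5-FU libraries overlap the DMSO libraries. At 6 h the gap was narrow, with 46.7 CPM in the higher 5-FU library and 46.9 in the lower DMSO library. The difference of 1.38 between these effects was not tested. With the 6 h and 24 h DMSO libraries as controls, U13 at 12 h was 0.00016. The U13 effect at 24 h exceeded that at 6 h by 1.05, which did not pass the test of the difference (edgeR adjusted p = 0.0726). For U14 the signs were opposite at 6 h (0.14) and 24 h (-0.57), and the difference of -0.71 did not pass the test (edgeR adjusted p = 0.465).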

How the results depend on the processing

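Limits first: with 2 libraries a group and 59 to 529 counts a library for U8, U13, U13_ and U14, only large changes of these names could be called. Scaling moved the median log2 fold change of all names from 0.17 to -0.40 at 12 h and from 0.13 to -0.09 at 24 h (library size alone), and turned the split of higher and lower calls from 307 and 57 to 61 and 436 (library size alone), 163 and 233 (RLE) or 195 and 175 (TMM from name sums) at 12 h and from 117 and 13 to 50 and 32 at 24 h (TMM from name sums), so values at 12 h up to 0.47 turned sign with the scaling. The cause of the changes below was not tested unless the setting itself names it. The counts below give how many names, copies or sums were called, and a setting may call others than the main fit did.

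Names called at 24 h (4) numbered 1 with library size alone, 2 with TMM from name sums, 0 with only the 4 libraries of the comparison and 1 to 5 with a library left out. At 12 h (2) they numbered 3 with RLE (U3 lower), without other structural RNA or with the other DMSO libraries as controls, 4 with only the 4 libraries and 1 to 2 with a library left out. With Nutlin (0) they numbered 2 with RLE, 1 with library size alone (U14, lower), 2 without other structural RNA, 1 with TMM from name sums, 2 with only the 4 libraries and 0 to 1 with a library left out. The 24 h minus 6 h difference (0) gave 1 with DESeq2 and 0 to 3 with a library left out. DMSO against untreated (1) gave 2 with DMSO 12 h alone, 0 with DMSO 24 h alone and 0 to 1 with a library left out. Copies called at 24 h (2) numbered 3 with RLE, without other structural RNA, DESeq2 or no filter, 1 with library size alone, 0 with only the 4 libraries and 0 to 5 with a library left out; at 12 h (4), 3 with no filter and 1 to 3 with a library left out; with Nutlin (0), 1 without other structural RNA and 0 to 2 with a library left out; for 24 h minus 6 h (0), 1 with DESeq2; for DMSO against untreated (0), 1 with library size alone, without other structural RNA, with DESeq2 or with no filter, and 2 with DMSO 12 h alone. Sums without main copies called at 24 h (1) numbered 0 with RLE, library size alone, TMM from name sums, DESeq2, the replicate block or only the 4 libraries, and 0 to 1 with a library left out; at 12 h (1), 2 with the other DMSO libraries as controls and 0 to 1 with a library left out; for DMSO against untreated (0), 2 with DMSO 12 h alone.

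Signs turned as follows. With library size alone: U3 -0.036 and U8 -0.015 (Nutlin), U3 -0.062, U14 -0.036 and U13_ -0.12 (6 h), U13_ -0.20, U14 -0.37 and U17 -0.10 (12 h), U13_ -0.091 (24 h), and U13 0.012, U13_ 0.11 and U8 0.15 (24 h minus 12 h). With RLE: U3 -0.047, U14 -0.0091 and U13_ -0.10 (6 h) and U14 -0.077 (12 h). With the other DMSO libraries as controls at 12 h: U3 0.39, U13_ -0.067, U14 -0.050 and the SNORD3B-1 copy 0.40. With DESeq2: U13_ -0.020 (24 h minus 6 h). For DMSO against untreated: U13 -0.70, U14 -0.11 and U17 0.15 with DMSO 12 h alone and U14 -0.20 with DMSO 6 h alone. Without 12 h: U13 per U3 -0.11 and U13 per U17 -0.22. With 1 library left out in turn, values reached across 0 for U13 (-0.23 to 0.095), U13_ (-0.31 to 0.080) and U8 (-0.015 to 0.31) with Nutlin, U13_ (-0.20 to 0.26), U17 (-0.026 to 0.55) and U3 (-0.086 to 0.32) at 6 h, U14 (-0.12 to 0.38) at 12 h, U13_ (-0.12 to 0.28) for 24 h minus 6 h, U8 (-0.40 to 0.031) for 24 h minus 12 h, U13 (-0.0017 to 0.12) and U14 (-0.018 to 0.15) for DMSO against untreated, and U13 per U17 (-0.046 to 0.19).

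The labels do not say that replicates of the same number belong together. Deviations of same-numbered libraries correlated by 0.022 at 6 h, 0.019 at 12 h, 0.37 at 24 h and -0.07 with Nutlin. Whether same-numbered libraries at 24 h share a batch was not tested. With the replicate block, 2 names were called at 12 h and 4 at 24 h, as without it.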
